A study of Mus musculus with 6 samples.

Results

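The genes described here make, sense and remove cyclic AMP (cAMP) in the mouse left ventricle: the G protein subunits Gnas and Gnai2, the adenylyl cyclases Adcy5 and Adcy6, the protein kinase A (PKA) subunits Prkaca, Prkar1a and Prkar2a, and the phosphodiesterases Pde3a, Pde4b and Pde4d. The members were chosen by gene symbol, as all probe sets whose platform annotation names exactly 1 of these 10 genes, which gave 32 of the 45101 probe sets of the array (10 of 18194 genes named by a probe set of their own). A probe set is a group of short probes meant to read 1 stretch of a transcript. Whether the probes also match other sequences was not checked here.

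Left ventricle was taken from male C57BL/6 mice at 12 to 16 weeks of age. The knockout group (3 samples) was homozygous for a targeted disruption of Akt2 (akt2-/-), a kinase of insulin signalling, in a line backcrossed more than 7 times, and the wild type group (3 samples) was C57BL/6. The disruption is not described as restricted to myocytes, and the other cells of the ventricle carried it too. Nothing in the labels says that the 3 samples of a genotype came from separate animals, and the spread between them may therefore be technical. Each sample was read on 1 Affymetrix array as a MAS5 signal, a linear brightness in arbitrary units, and a signal is compared only with that of the same probe set.

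In a cardiac myocyte, stimulatory receptors act through the Gs alpha subunit, the product of Gnas, to switch on adenylyl cyclase, while inhibitory receptors act through Gi subunits such as the product of Gnai2 to restrain it. The cAMP made releases the catalytic subunit of PKA from its regulatory subunits, and PKA then phosphorylates calcium channels, phospholamban and sarcomere proteins, which strengthens and quickens the beat. Phosphodiesterases break cAMP down and confine it to small regions of the cell, with PDE3 and PDE4 as the main families in the rodent heart.

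The arrays differed among themselves before any genotype was compared. The replicate 1 arrays of both genotypes had median signals of 134.3 (knockout) and 167.2 (wild type), where the other 4 had 88.4 to 91.2, and 18S ribosomal RNA control signals of 57275 and 82330, where the others had 152.7 to 446.7. In the 12 poly-A control probe sets the replicate 1 arrays had median signals of 37.55 (knockout) and 69.8 (wild type), where the others had 505.4 to 922.6. The labels name no cause. Results are therefore also given for same-numbered arrays of the genotypes, called pairs 1 to 3, and from a fit with the replicate 1 arrays as a block. The labels do not say what the replicate numbers stand for, so same-numbered arrays may not be true pairs. Akt2 itself had signals of 2362.6, 2561.3 and 2505.4 in the wild type and 477.8, 394.5 and 255.4 in the knockout, a log2 difference of -2.69 (SE 0.24). Its adjusted p in limma, over the brightest probe set of each gene, was 0.0638, and 0.0963 with the replicate 1 block (unadjusted 1.15e-05 and 1.74e-05). The disrupted gene thus misses the threshold of 0.05 that is used below for the members. All 12 cardiomyocyte markers examined were bright enough to be tested, and none of the 7 lymphocyte and 5 adipocyte markers on the array was.

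No member differed between the genotypes at an adjusted p under 0.05. Of the 32 probe sets, 23 were bright enough to be tested, at least 1 for each of the 10 genes, and 0 of these passed the limma test, where 0% of all 22519 probe sets passed. The adjusted p was 0.9999 for each of the 23. In 16 of them the knockout mean was higher and in 7 lower, and the median log2 difference was 0.05, against 0.01 over all probe sets tested. Measured by the brightest probe set of each gene, 9 of the 10 genes differed by less than 0.2 on the log2 scale. The differences ran from -0.09 (Adcy5) to 0.26 (Pde4b). Their limma confidence intervals were wider, and with the replicate 1 block they reached up to 0.63 (Pde4b, 1.54-fold). Without a block the Gnai2 interval ran from -1.07 to 1.29. The small differences therefore do not show that the genotypes were equal. When each array was centred on its median, the Prkaca difference was 0.28, where it was 0.19 as deposited. The count of 9 thus depends on scaling. With the replicate 1 block 0 members passed as well (0.00444% of all probe sets did), and the lowest adjusted p was 0.625. In whole ventricle, fewer cells of a type and less RNA per cell cannot be told apart.

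Without adjustment, 1 of the 23 probe sets had a p under 0.05, where 2.01% of all probe sets did. With the replicate 1 block there were 2, against 7.77%, and with the replicate number as a block 2, against 5.63%. These few probe sets, of Pde4b and Pde3a, are described below with their signals. In 2 of the 32 probe sets the signals of the genotypes did not overlap, against 7.59% of all probe sets without a filter on brightness. Of the 23 tested, the signals of 1 did not overlap, against 7.3%.

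**Figure D1:**
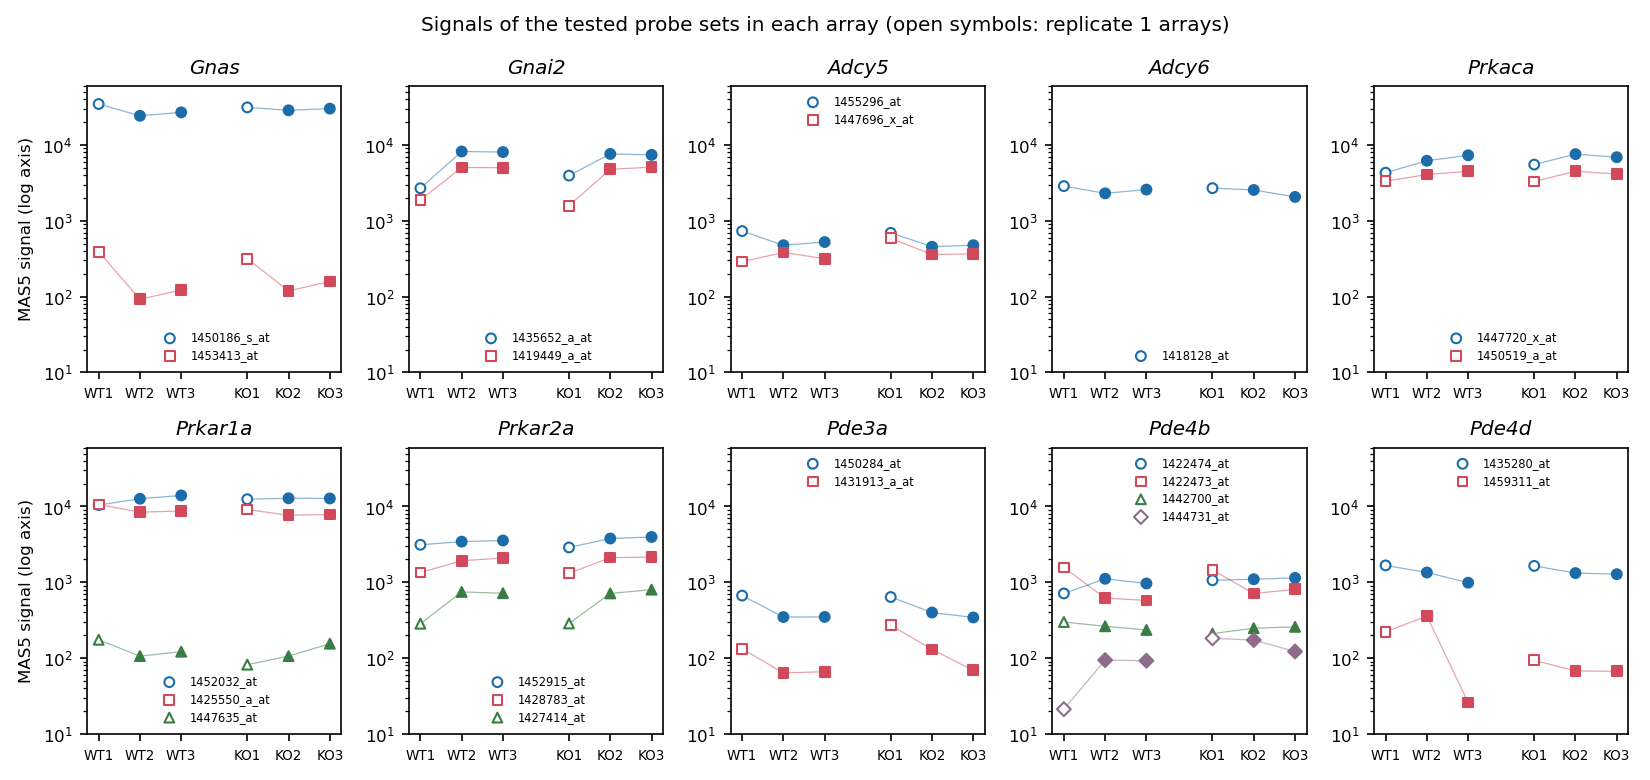
MAS5 signal (vertical axis, log scale, arbitrary units) of the 23 tested probe sets in each array, with the 3 wild type arrays (WT1 to WT3) left and the 3 knockout arrays (KO1 to KO3) right in each panel. Open symbols are the replicate 1 arrays, and lines join arrays of 1 genotype. The genotypes overlap in all panels but that of Pde4b 1444731_at, while in Gnai2 and Prkar2a 1427414_at both replicate 1 arrays sit below the other 4.

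Gnas, which encodes the stimulatory Gs alpha subunit, had overlapping signals in the genotypes by its brightest probe set. This probe set, 1450186_s_at, had signals of 34689, 24264.2 and 26950.9 in wild type replicates 1 to 3 and 31346.6, 28661.9 and 30189.4 in the knockout. The knockout arrays lay inside the range of the wild type arrays. The log2 difference was 0.09 (SE 0.20, adjusted p = 0.9999, limma), and with the replicate 1 block its 95% interval ran from -0.24 to 0.41, a ratio between 0.846 and 1.33. A second tested probe set, 1453413_at, had a mean signal of 201.8 ± 165 (SD, n = 3) in the wild type and 198 ± 105 (SD, n = 3) in the knockout. The Gnas locus is imprinted and gives several transcripts from alternative first exons, and which of them each probe set reads was not established here. The other 3 Gnas probe sets were too dim to be tested, with signals of 53.5 to 112 for 1443375_at, 3 to 32.8 for 1427789_s_at and 3.9 to 28.8 for 1421740_at.

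Gnai2 encodes an inhibitory G protein subunit, and its signals differed between arrays far more than between genotypes. Its probe set 1435652_a_at had 2687.5, 8209.7 and 8065.8 in the wild type and 3943.8, 7623.6 and 7411.3 in the knockout. The 2 low values are the replicate 1 arrays, and the groups overlap. The probe set 1419449_a_at had 1881.8, 5054.7 and 5012.4 against 1584.9, 4786.9 and 5095.2, again with the replicate 1 arrays low. The log2 differences between the genotypes were 0.11 (SE 0.50) and -0.10 (SE 0.57). With the replicate 1 block the intervals narrowed to -0.31 to 0.52 and -0.39 to 0.19. The first probe set gave 0.55 in pair 1 and -0.11 in pairs 2 and 3.

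Adcy5 and Adcy6 encode the adenylyl cyclases that are most abundant in cardiac myocytes, both inhibited by Gi and by calcium. Adcy6 was read by 1 probe set, 1418128_at, at 2870, 2303.3 and 2581.7 in the wild type and 2696.6, 2551.8 and 2064.2 in the knockout. The groups overlap, and the log2 difference was -0.09 (SE 0.19, and 0.005 when each array was centred on its median), with a replicate 1 block interval of -0.42 to 0.24. The brightest Adcy5 probe set, 1455296_at, had 732.3, 476.5 and 524.3 against 694.2, 455.2 and 476.5. Here the knockout array was the lower in each of the 3 same-numbered pairs, by -0.07, -0.06 and -0.13 on the log2 scale, a step within the spread of the arrays (mean -0.09, SE 0.25, and 0.0025 when each array was centred on its median).

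The other Adcy5 probe sets had higher means in the knockout. 1447696_x_at had 289.7, 381.8 and 316.5 against 586.6, 359 and 366.1, a log2 difference of 0.36 (SE 0.25) that was 0.97 in pair 1 and 0.06 in pairs 2 and 3. The dim 1443080_at, which was not tested with the others, had 39.7, 25.2 and 27.1 against 101.9, 56.2 and 43.9. It is 1 of the 2 member probe sets in which the genotypes did not overlap, and its log2 difference without the filter was 0.72 (SE 0.31, unadjusted p = 0.0555 by limma, adjusted p = 0.9999). The other dim probe set, 1439829_at, had 31.6, 5.8 and 41.8 against 10.9, 38.8 and 39.9. Its log2 difference without the filter was 0.13 (SE 0.42), made up of -0.71, 1.14 and -0.04 in pairs 1 to 3. The 4 Adcy5 probe sets thus give no common direction, and their signals outside 1455296_at stayed under 600.

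Among the PKA subunits, Prkaca encodes the alpha catalytic subunit, the kinase itself. Its probe set 1450519_a_at had 3331.9, 4076 and 4493.7 in the wild type and 3298.4, 4500.1 and 4135.7 in the knockout. The means were 3967 ± 589 and 3978 ± 616 (SD, n = 3 each), a log2 difference of 0.00 (SE 0.21), and the replicate 1 block interval of -0.28 to 0.29 spans ratios from 0.822 to 1.22. The brighter 1447720_x_at had 4308.8, 6192.3 and 7321.3 against 5514.4, 7576.6 and 6893.4, a log2 difference of 0.19 (SE 0.25) with overlapping groups.

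Prkar1a encodes the type I alpha regulatory subunit, which holds the catalytic subunit inactive and is mostly soluble. Its probe set 1452032_at had 10449.3, 12650.5 and 13989.4 in the wild type and 12473.3, 12833.2 and 12768.1 in the knockout. All 3 knockout values lay inside the wild type range, with a log2 difference of 0.05 (SE 0.18). The probe set 1425550_a_at had 10629.6, 8413.9 and 8735.6 against 9121.3, 7662.3 and 7839.5. The knockout was the lower in each same-numbered pair, by -0.22, -0.13 and -0.16 on the log2 scale, with a mean of -0.17 (SE 0.19). The replicate 1 block interval was -0.44 to 0.10, with an adjusted p of 0.705 in limma. The 2 bright Prkar1a probe sets therefore differ in direction, and neither passed. The dim 1447635_at had signals between 81.9 and 174.5 and a log2 difference of -0.21 (SE 0.27), which was -0.92 in pair 1 and 0.15 in pairs 2 and 3.

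Prkar2a encodes the type II alpha regulatory subunit, which A-kinase anchoring proteins dock to membranes and filaments. Its brightest probe set, 1452915_at, had 3124.8, 3439.3 and 3558.5 in the wild type and 2881.4, 3780.4 and 3959.9 in the knockout. The groups overlap, with a log2 difference of 0.06 (SE 0.20). The probe set 1428783_at had 1345.1, 1924.8 and 2089.8 against 1314.1, 2117 and 2153, a log2 difference of 0.05 (SE 0.28). 1427414_at had 284.2, 745.7 and 717.3 against 286.2, 713.3 and 799.5, a log2 difference of 0.03 (SE 0.50). With the replicate 1 block these 3 intervals were -0.24 to 0.35, -0.23 to 0.33 and -0.25 to 0.32, the ratio staying between 0.842 and 1.28. The remaining probe set, 1432409_at, with 22.2 to 116.8, was not tested.

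**Figure D2:**
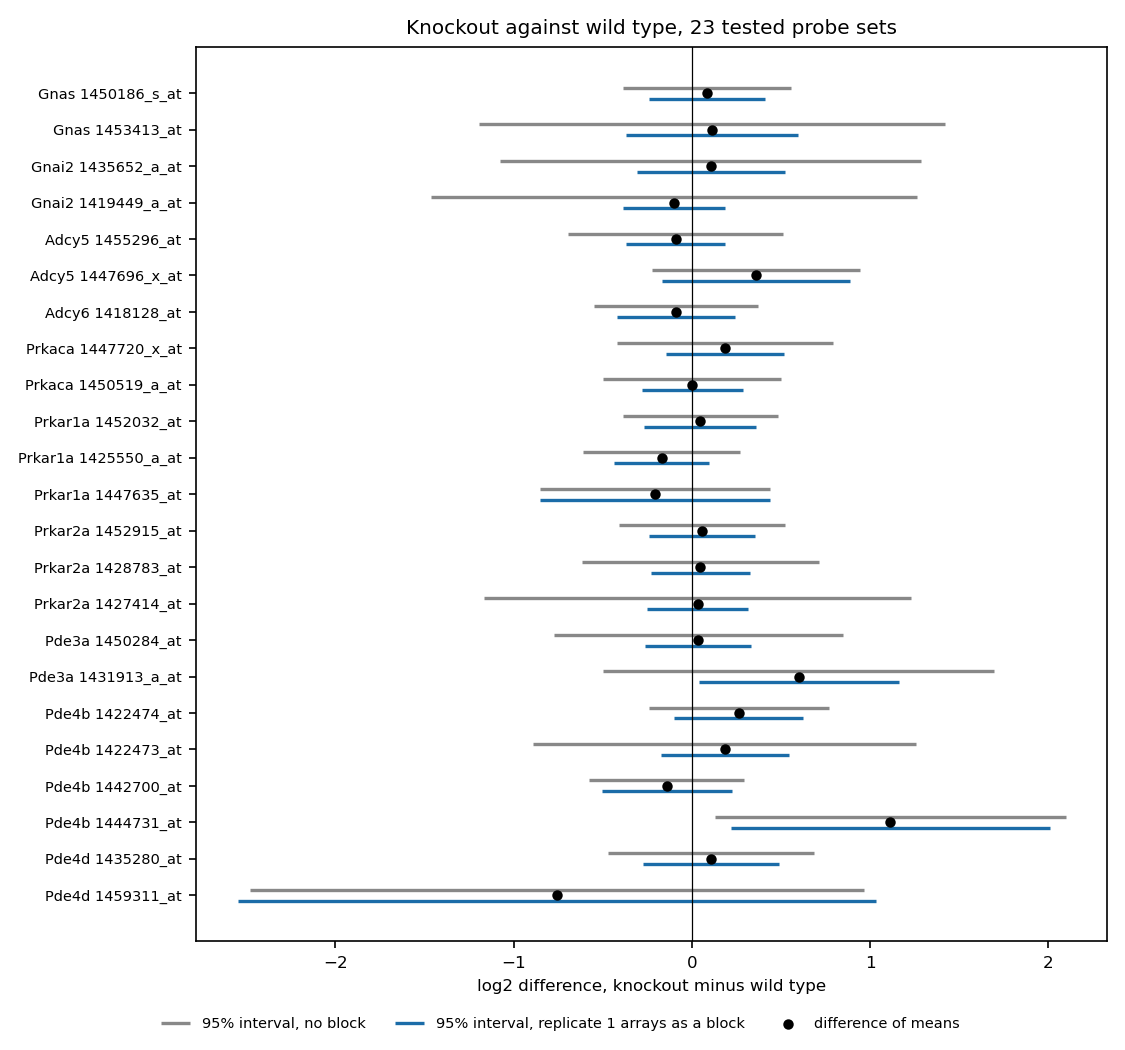
Log2 difference of knockout minus wild type (horizontal axis; points, 3 arrays a genotype) for the 23 tested probe sets, with the limma 95% interval without a block (grey) and with the replicate 1 arrays as a block (blue). The blue intervals of all Gnas, Gnai2, Adcy5, Adcy6, Prkaca, Prkar1a, Prkar2a and Pde4d probe sets include 0, and those of Pde4b 1444731_at and Pde3a 1431913_a_at do not.

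Pde3a encodes the cGMP-inhibited phosphodiesterase that milrinone blocks. Its brightest probe set, 1450284_at, had 667.7, 347.9 and 349.2 in the wild type and 639.2, 399.4 and 343.7 in the knockout. The replicate 1 arrays are the high ones in both genotypes, and the log2 difference was 0.04 (SE 0.34), with a replicate 1 block interval of -0.26 to 0.33. The dimmer 1431913_a_at had 133, 63.7 and 66.2 against 271.6, 130.3 and 68.9. The knockout array was higher in each same-numbered pair, by 0.92, 0.83 and 0.04 on the log2 scale, but the groups overlap. Its log2 difference of 0.60 (SE 0.46) had an unadjusted p of 0.235 in limma without a block, 0.0399 with the replicate 1 block and 0.0429 with the replicate number as a block. The adjusted p was 0.9999, 0.629 and 0.827. The probe set 1431914_at, not tested, had 229.1 in wild type replicate 1 and 12.9 to 51.5 in the other arrays.

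Pde4b, a cAMP-specific phosphodiesterase that sits with the L-type calcium channel in mouse myocytes, had the widest spread of differences among its probe sets. The brightest, 1422474_at, had 712.8, 1112.7 and 964.8 in the wild type and 1065.5, 1097.3 and 1143.6 in the knockout. Wild type replicate 1 was the lowest and the groups overlap, with a log2 difference of 0.26 (SE 0.21) that was 0.57 in pair 1 and 0.11 in pairs 2 and 3. The probe set 1422473_at had 1571.9, 619.1 and 577.1 against 1454.9, 710.9 and 807.9. Both replicate 1 arrays were the high ones here, and the log2 difference was 0.18 (SE 0.45).

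The dim probe set 1444731_at was the only tested member in which the genotypes did not overlap. It had 21.2, 94.1 and 92.3 in the wild type and 182.5, 172.9 and 122.2 in the knockout, with wild type replicate 1 far below the rest. The log2 difference was 1.11 (SE 0.41), and it was 2.25 in pair 1 and 0.54 in pairs 2 and 3. Its unadjusted p in limma was 0.0321 and its adjusted p 0.9999, and with the replicate 1 block these were 0.0229 and 0.625. The unadjusted p was above 0.05 when knockout replicate 1 or knockout replicate 2 was left out. It was also above 0.05 after quantile normalization and when each array was centred on its median. Its other tested probe set, 1442700_at, had 299.3, 263 and 235.1 against 210.6, 248.1 and 258.3, a log2 difference of -0.14 (SE 0.18). The 2 Pde4b probe sets that were not tested differed in opposite directions in pair 1, 4.5 against 134.2 for 1446577_at and 131 against 1.5 for 1447718_at. Both signals over 100 stood in replicate 1 arrays, and in the other 4 arrays these probe sets had 1.2 to 41.8.

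Pde4d encodes the cAMP-specific phosphodiesterase associated with the ryanodine receptor and with beta-adrenergic receptor complexes. Its bright probe set 1435280_at had 1671.3, 1346.9 and 988 in the wild type and 1645.1, 1323.8 and 1280.1 in the knockout. The groups overlap, and the log2 difference was 0.11 (SE 0.24), with a replicate 1 block interval of -0.27 to 0.49. The dim 1459311_at had 222.1, 359.3 and 25.9 against 93.5, 67.6 and 67.1. The wild type arrays lie on both sides of the knockout arrays, and the log2 difference of -0.76 (SE 0.72) has no better precision with the block (-2.55 to 1.03).

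The direction of the differences was seldom the same in all pairs. In 12 of the 23 tested probe sets the difference had opposite signs in pair 1 and in the mean of pairs 2 and 3, as in 50% of all probe sets. The sign was the same in all 3 same-numbered pairs in 4 of the 23, against 29.2% of all. These 4 were Pde3a 1431913_a_at and Pde4b 1444731_at, higher in the knockout, and Adcy5 1455296_at and Prkar1a 1425550_a_at, lower. The median size of the difference was 0.11 on the log2 scale over the 23, beside 0.15 over all probe sets tested.

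**Figure D3:**
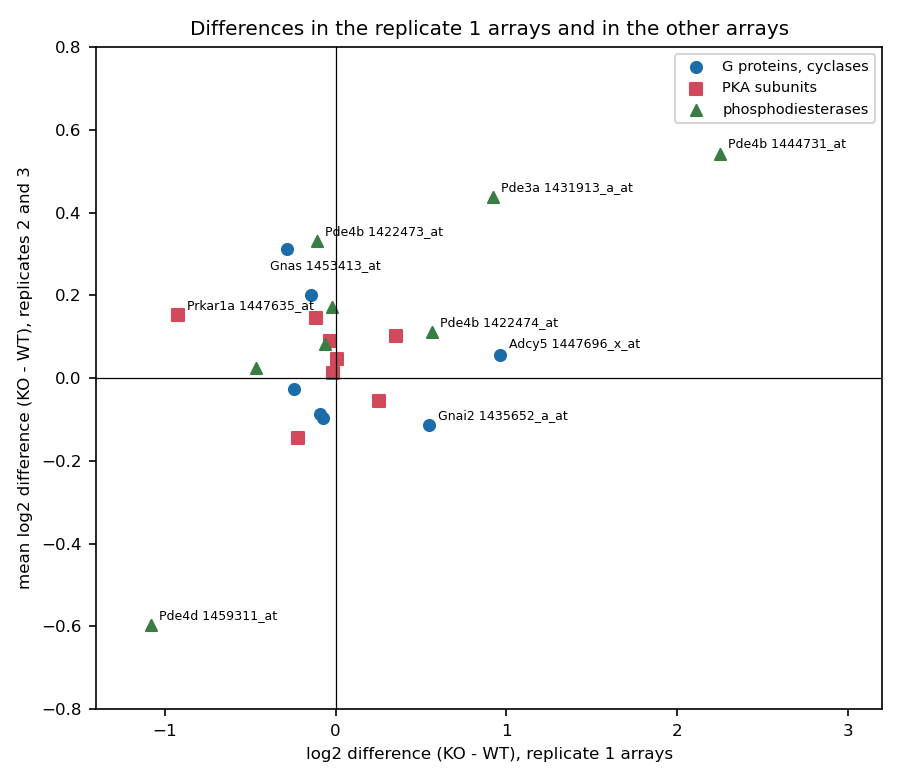
Log2 difference of knockout minus wild type in the replicate 1 arrays (horizontal axis, 1 array a genotype) and mean of that difference in replicates 2 and 3 (vertical axis, 2 arrays a genotype), 1 point for each of the 23 tested probe sets, coloured by role. Most points lie within 0.2 of 0 on the vertical axis, and Pde4b 1444731_at, at 2.25 and 0.54, is the farthest to the upper right.

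Between the replicate 1 arrays and the other 4, several members differed more than any did between the genotypes. In 17 of the 23 tested probe sets both replicate 1 arrays lay above (9) or below (8) all of the other 4, against 54.3% of all probe sets tested. Gnai2 was 2.39-fold and 2.86-fold lower in the replicate 1 arrays by its 2 probe sets, Prkar2a 1427414_at was 2.49-fold lower and Prkaca 1447720_x_at 1.43-fold lower, on the log2(signal + pseudocount) scale. Pde4b 1422473_at was 2.21-fold higher, Gnas 1453413_at 2.62-fold higher and Pde3a 1450284_at 1.77-fold higher. The brightest Pde4b probe sets differed in opposite directions: 1422474_at averaged 889.2 in the replicate 1 arrays and 1080 in the others, 1422473_at 1513 and 678.8.

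These directions depend partly on scaling. The median probe set was 0.10 higher in the replicate 1 arrays on the log2 scale as deposited, -0.04 after quantile normalization and -0.52 when each array was centred on its median. Centring turned the sign in 8 of the 23 probe sets, among them Gnas 1450186_s_at, Adcy6, Adcy5 1455296_at and Pde4d 1435280_at, and quantile normalization in 1. The probe sets of Gnai2, Prkar2a and Prkaca were lower, and Gnas 1453413_at, Pde3a 1450284_at, Pde3a 1431913_a_at and Pde4b 1422473_at higher, under all 3 scalings. Marker genes of cell types differed between these arrays too, in values taken under the deposited scaling alone. In that scaling the replicate 1 arrays also had higher median signals. Whether the gaps below hold under the other scalings was not tested. The summed signal of 12 cardiomyocyte markers was 990270 to 1618000 in the replicate 1 arrays and 547850 to 731550 in the other 4. That of 10 fibroblast markers was 66204 to 71219 against 92956 to 99903, a gap held mostly by decorin (Dcn), the brightest. The other 9 summed to 50918 to 54576 against 55614 to 60104, a sum taken after the values were seen, and Col1a1 was higher in the replicate 1 arrays (log2 0.85). In 3 of the 10 fibroblast markers both replicate 1 arrays lay below the other 4, and in 2 above. The summed signal of 12 macrophage and monocyte markers was 15464 to 20950 against 25063 to 32299. That of 9 smooth muscle and pericyte markers overlapped, with 44238 to 48096 against 46271 to 49533. In 7 of these 9, however, both replicate 1 arrays lay above the other 4. None of these sums separated the genotypes. Their part in the difference between the arrays was not tested.

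**Figure D4:**
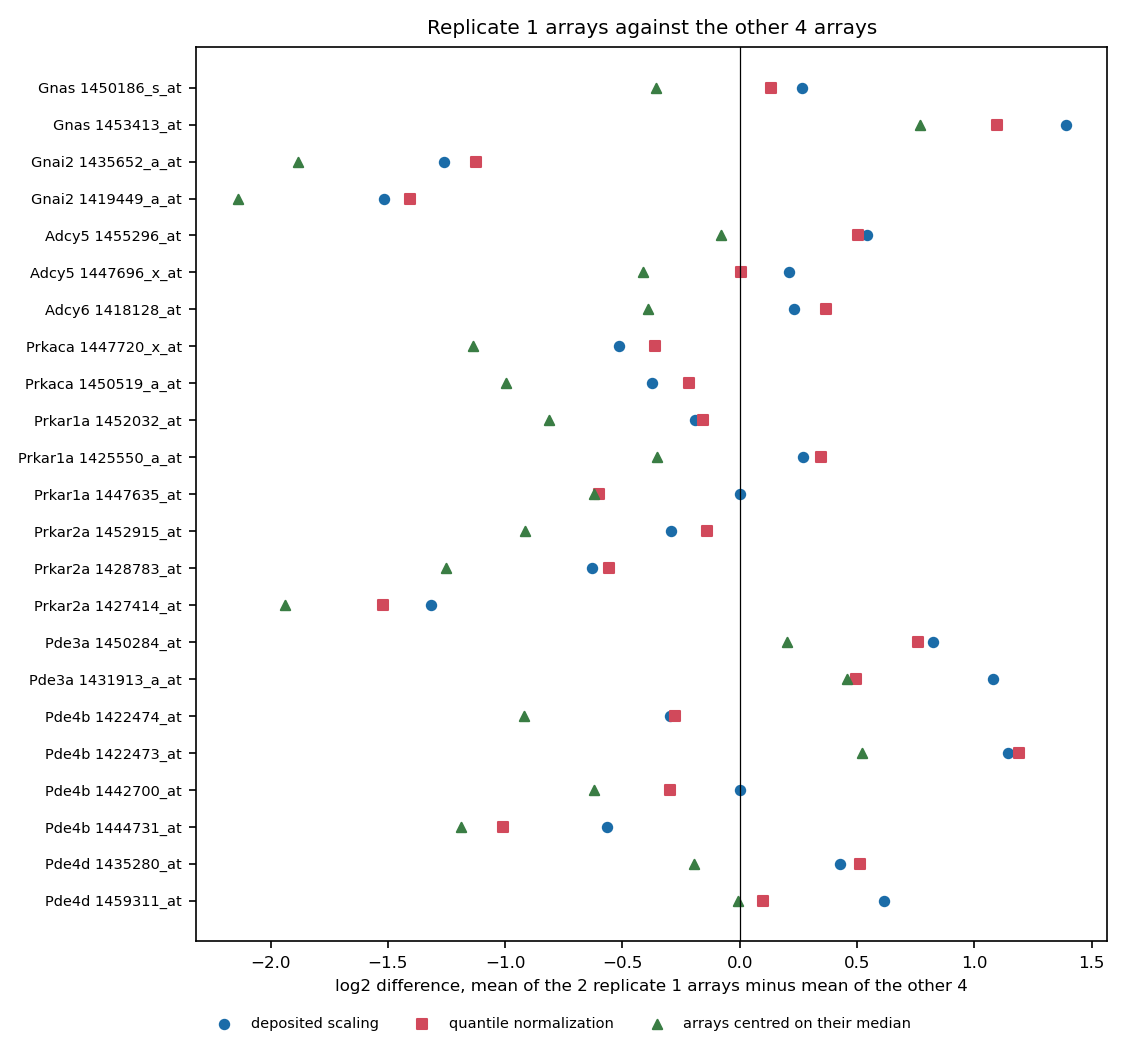
Log2 difference of the mean of the 2 replicate 1 arrays minus the mean of the other 4 arrays (horizontal axis) for the 23 tested probe sets, under the deposited scaling (circles), quantile normalization (squares) and centring on the array median (triangles). Gnai2 lies at -1.26 and -1.52 under the deposited scaling and stays below 0 under the others, while Gnas 1453413_at and Pde4b 1422473_at stay above 0.

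The cAMP response element, the 8 letters TGACGTCA to which the PKA target CREB binds, was searched for near the starts of the members. RefSeq promoter windows of assembly GRCm38.p6, from 250 bases before to 50 after a transcript start, were held for 7 of the 10 members (19 windows), and for Gnai2, Adcy6 and Pde3a none was used. The full element was in 1.79% of all 32851 windows and the 5 letters TGACG, its core, on either strand in 20.8%. The core is part of the full element and is counted there too. Among the members only Prkar1a held the full element, in 2 overlapping windows, where 2.03% of the 27025 genes with a window did, and 5 of the 7 members held the core, where 23% of genes did. A gene counts if any of its windows holds the letters, and the members had more windows a gene than all genes. By window, 9 of the 19 held the core, some of them overlapping, beside the 20.8% of all windows. Enrichment was not tested. Further core matches of Gnas (chr2:174329778-174329807) and Prkar1a (chr11:109649200-109649229) are not shown. The stretches of 30 bases below, 5′ to 3′ on the plus strand, are shown because they place the element or its core (capitals) in the members whose signals are given above.
Prkar1a, full element, chr11:109650889-109650918: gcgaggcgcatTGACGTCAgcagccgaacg
Prkar1a, core, chr11:109650750-109650779: gttctagctagaTGACGacgggctaagggt
Prkaca, core, chr8:83972846-83972875: gtctgcaactcgCGTCActcatccaggagc
Prkaca, core, chr8:83972960-83972989: gggctgcgggggCGTCAcggacagaggact
Prkar2a, core, chr9:108692127-108692156: cgcggccgcgtgCGTCAcaacccgggcgcc
Gnas, core, chr2:174327699-174327728: aagaggttggggCGTCAtcaggctggttag
Pde4b, core, chr4:102421509-102421538: gatttggctgcaCGTCAattttctcatctg

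The Prkar1a element begins 49 bases before 1 annotated start and at base 39 after another. The 2 bright Prkar1a probe sets had log2 differences of 0.05 and -0.17, so the member with the full element did not pass, and the same holds for the 5 with the core. Of all genes tested by their brightest probe set, 315 had the full element in a window, and their median log2 difference was 0.02, beside 0.01 over all 11075 genes. Of these 315, 3.17% had an unadjusted limma p under 0.05, where 2.17% of all genes did, and 6.35% with the replicate 1 block, where 8.32% did. A match shows the letters, not binding.

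The rest of the pathway was followed in 84 further genes, of which 78 were on the array and 65 were bright enough to be tested, by 1 probe set each. None passed in limma without a block (lowest adjusted p 0.9999) or with the replicate 1 block (0.586). The knockout mean was higher in 40 and lower in 25 (51 and 14 when each array was centred on its median), with a median log2 difference of 0.07 beside 0.01 over all genes. Of all genes, 53.3% were higher as deposited and 70.4% after centring, beside 61.5% and 78.5% of these 65. An unadjusted p under 0.05 was found for 1 gene (1.54%, against 2.17% of all genes), and for 3 with the replicate 1 block (4.62%, against 8.32%), all higher in the knockout. The genotypes did not overlap in 3 genes, or 4.62%, against 7.46% of all genes.

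Of 14 G protein and cyclase genes outside the members, 7 were higher and 7 lower, with a median of -0.01. Gnao1, which encodes the alpha subunit of Go, of the inhibitory class, had 364.1, 443 and 342.9 in the wild type and 582.2, 486.3 and 571.3 in the knockout. The groups did not overlap, and the log2 difference was 0.49 (SE 0.17), with an unadjusted p of 0.0263 and an adjusted p of 0.9999 in limma. It was 0.65, 0.13 and 0.70 in the 3 same-numbered pairs. Cap1, an actin-binding protein named for its link to adenylyl cyclase in yeast, had 0.46 (SE 0.26), of which 1.12 was in pair 1 and 0.14 in pairs 2 and 3. Adcy1 had 0.53 (SE 0.34) and Adcy4 -0.28 (SE 0.22).

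The 4 other PKA genes tested had a median of 0.22, which was 0.35 in pair 1 and 0.03 in pairs 2 and 3. Pkia, which encodes a peptide inhibitor of the catalytic subunit, had 4073.2, 5590.3 and 6329.8 in the wild type and 4749.2, 7242.5 and 7307 in the knockout. Each knockout array was above its same-numbered wild type array, by 0.22, 0.37 and 0.21 on the log2 scale, though the groups overlap. The mean was 0.27 (SE 0.26), with an unadjusted p of 0.332 in limma, and 0.0461 with the replicate 1 block (adjusted p = 0.593). Prkacb, the beta catalytic subunit, had 0.20 (SE 0.25), which was 0.47 in pair 1 and 0.07 in pairs 2 and 3. Prkar1b had 0.24 (SE 0.44), which was 1.39 in pair 1 and -0.33 in pairs 2 and 3. The inhibitor Pkig had -0.02 (SE 0.15).

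Of 12 other phosphodiesterase genes, counting Pde4dip, 7 were higher and 5 lower, with a median of 0.05. Pde4dip encodes myomegalin, an anchor protein named for binding PDE4D and not itself an enzyme. It had 15737.5, 10712.2 and 11163.5 in the wild type and 18733.5, 15521.1 and 12874.8 in the knockout. It was higher in each same-numbered pair, by 0.25, 0.53 and 0.21, with overlapping groups and a mean of 0.33 (SE 0.23). Its unadjusted p in limma was 0.193, and 0.0324 with the replicate 1 block (adjusted p = 0.586). Pde7b had 0.25 (SE 0.18) and Pde4a 0.23 (SE 0.19). Pde5a, which is specific for cGMP, had 0.39 (SE 0.31), which was 1.39 in pair 1 and -0.11 in pairs 2 and 3.

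Among 14 genes of A-kinase anchoring proteins, which tether PKA near its substrates, 10 were higher and 4 lower, with a median of 0.13. Akap8 had 0.25 (SE 0.17), the intermediate filament protein Synm 0.23 (SE 0.21) and Akap8l -0.15 (SE 0.16). Akap11 had 0.23 (SE 0.23), which was 0.89 in pair 1 and -0.10 in pairs 2 and 3. Of the 21 effectors, substrates and phosphatase genes, 13 were higher and 8 lower, with a median of 0.07. Ppp1r1a, an inhibitor of protein phosphatase 1 that PKA activates, had 0.37 (SE 0.37), the phosphatase subunit Ppp2ca 0.18 (SE 0.20), the cAMP-binding protein Bves -0.20 (SE 0.22) and the CREB coactivator Crtc2 0.61 (SE 0.67), which was 11.5 in wild type replicate 1 and 86.9 to 178.4 in the other arrays.

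**Figure D5:**
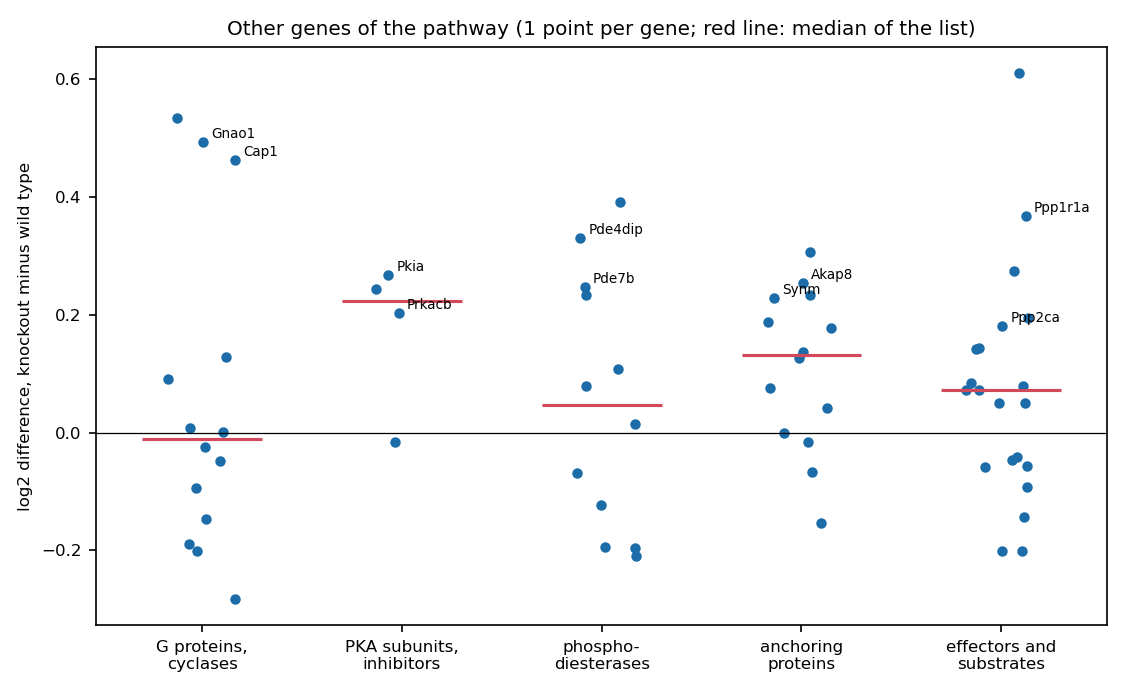
Log2 difference of knockout minus wild type (vertical axis, 3 arrays a genotype) for the 65 tested pathway genes outside the members, 1 point a gene, in the 5 lists along the horizontal axis, with the median of each list as a red line and the 2 genes of lowest unadjusted p named. The medians lie between -0.01 and 0.22, and no gene passed the adjusted threshold.

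The markers of cell types gave no called gene between the genotypes in the replicate 1 block fit or without a block. Of 12 endothelial markers 10 were lower in the knockout, with a median log2 difference of -0.14 that was -0.18, -0.14 and -0.07 in pairs 1 to 3. In 4 of the 12 (33.3%, where 7.46% of all genes did not overlap) every knockout array was below every wild type array, namely Vwf, Aqp1, Tek and Pecam1. Vwf, which encodes von Willebrand factor, had 901, 1065.8 and 1110.7 in the wild type and 788.1, 774.6 and 891.4 in the knockout, with an unadjusted limma p of 0.0982, and 0.0329 with the replicate 1 block (adjusted p = 0.586). The summed signals of the 12 were 66913 to 69366 in the wild type and 63871 to 68016 in the knockout. Without Fabp4, the brightest, they were 30571 to 31809 against 25722 to 28805, a sum taken after the values were seen. The marker values here and below are under the deposited scaling alone. Centring each array on its median moved the median difference of all probe sets tested from 0.01 to 0.10.

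In the other large marker lists the direction of the median differed between pairs. Of 12 macrophage and monocyte markers 11 were lower (median -0.20, sums 20950 to 32299 in the wild type and 15464 to 31440 in the knockout), with medians of -0.30, -0.36 and 0.08 in pairs 1 to 3. The 5 atrial myocyte markers had higher means in the knockout (median 0.41), but 4 of them were lower in pair 3, and wild type replicate 2 was low, as for Myl7 with 1101.2, 96.5 and 1246.3 against 1861.2, 1320.5 and 635.2. The median of the 12 cardiomyocyte markers was -0.09, made up of -0.66 in pair 1, where all 12 were lower in the knockout, and 0.17 in pairs 2 and 3. The fibroblast markers had medians of -0.06 in pair 1 and 0.07 in pairs 2 and 3, and those of smooth muscle and pericytes 0.10 and -0.02. Whether these differences bear on the members was not tested.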

How the data were processed

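Left ventricle was measured in 3 Akt2 knockout and 3 wild type samples, on 1 array each, from 12 ug of total RNA. The deposited values are intensities, linear signals that the authors computed with MAS5, per the submitters' processing notes; no source used here gives its settings, and no detection calls were used. The number of arrays limits the precision. Their scaling was kept. Signals were used as log2(signal + 21.7), 21.7 being the 20th percentile of all signals, so fold changes of dim genes are understated. Control probe sets (64) were left out. The test was limma 3.58.1 (R 4.3.3, lmFit and eBayes without covariates) on the 22519 probe sets whose mean log2 value reached the median of all (6.87), with Benjamini-Hochberg adjustment over all of them and a threshold of 0.05. For 11075 genes the same was done on the brightest probe set that names the gene alone. SE is limma's moderated standard error of a log2 difference, SD that of signals.

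The members, gene lists, alternatives and the block for the replicate 1 arrays were chosen with earlier results of these data known; the search for CREB site letters was added after the signals were seen. All member probe sets were named, and of each pathway list the 4 genes with the lowest unadjusted p, with Akt2 as the check of genotype. Same-numbered arrays deviated together from their genotype means (correlations of 0.61, 0.45 and 0.39 over probe sets). Deviations within a genotype cancel out, so a shift shared by the replicate 1 arrays alone also gives positive correlations for replicates 2 and 3. The values of 0.45 and 0.39 therefore cannot show whether replicates 2 and 3 are true pairs. The replicate numbers come from the sample titles, and what they stand for is not stated. The fit was tested on simulated data. Promoter windows are from RefSeq, GRCm38.p6.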

Additional observations from a re-analysis of the deposited data

How the results depend on the processing

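No member probe set, member gene or other pathway gene passed the adjusted threshold under any of the 18 alternatives run, and the lowest adjusted limma p of a member probe set was 0.517. The fit with the replicate number as a replicate block changed no call of a member. The count of member probe sets with an unadjusted p under 0.05, 1 as reported, was 0 with the stricter filter, quantile normalization or median centring, 2 with the replicate block or the replicate 1 block, and 0 to 2 with 1 array left out (0 without knockout replicate 1 or 2). The count with genotypes not overlapping, 1 as reported, was 2 without a filter, 0 with the stricter filter, 8 in replicates 2 and 3 alone, where separation of 2 against 2 arrays is easier, and 1 to 5 with 1 array left out. The share of all probe sets was not counted in the fits on fewer arrays. Their counts therefore cannot be read as a result about the members.

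Filters, blocks and variance estimates leave a log2 difference itself as it is. Of 115 differences under the 5 settings that can move it (both pseudocounts, quantile normalization, median centring, replicates 2 and 3 alone), 108 kept their sign. After median centring Adcy5 1455296_at gave 0.0025 and Adcy6 0.005, and after quantile normalization Prkaca 1450519_a_at gave -0.0155. In replicates 2 and 3 alone Gnai2 1435652_a_at gave -0.114, Prkar1a 1452032_at -0.0555 and 1447635_at 0.151, and Pde4b 1442700_at 0.0236. With 1 array left out, which leaves unequal shares of replicate 1 arrays in the genotypes, 105 of 138 kept their sign, and 15 probe sets changed it at least once. Their ranges were -0.0252 to 0.232 for Gnas 1450186_s_at, -0.253 to 0.676 for Gnas 1453413_at, -0.423 to 0.416 and -0.570 to 0.442 for Gnai2 1435652_a_at and 1419449_a_at, -0.275 to 0.0872 for Adcy5 1455296_at and -0.167 to 0.0267 for Adcy6. For Prkaca 1447720_x_at and 1450519_a_at they were -0.0278 to 0.353 and -0.117 to 0.131, for Prkar1a 1452032_at -0.0679 to 0.142, and for Prkar2a 1452915_at, 1428783_at and 1427414_at -0.0295 to 0.198, -0.141 to 0.279 and -0.400 to 0.478. Pde3a 1450284_at ran from -0.216 to 0.334, Pde4b 1422473_at from -0.123 to 0.639 and Pde4d 1435280_at from -0.0909 to 0.282. The causes of these sign changes were not tested. None of these differences passed the threshold in any fit, so their signs carry no call.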
